A study of Mus musculus with 5 samples.

Results

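The genes described here encode the proteins of the cytosolic ribosome. They were chosen by name: every gene whose single symbol in the platform's annotation begins with Rpl or Rps and a digit, or is Rplp0, Rplp1, Rplp2 or Rpsa, without the Rps6k kinases and the names of pseudogenes. The rule found 63 of the 19938 genes with a probe set of their own. Of these, 33 encode proteins of the large subunit, 21 proteins of the small subunit, and 9 are paralogues or genes that only share the name.

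All samples came from 5 female NOD mice of 10 weeks, an inbred strain that develops autoimmune diabetes as leukocytes enter the pancreas. CD45+ cells, the leukocytes, were sorted from the pancreas of each mouse, and the RNA of each mouse was hybridised to 1 array. Magnetic resonance imaging of the pancreas had given each mouse a T2 value, a relaxation time of the signal; mice 1 to 5 are labelled 35.3, 35.24, 32.77, 30.02 and 28.98 ms. The mice form 1 group with no other treatment or genotype on the labels, and the question was whether the level of a transcript varied with T2.

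The arrays had median intensities between 23.8 and 24.5. Ptprc, which encodes CD45, had a mean log2 intensity of 11.06 ± 0.10 (SD, n = 5). Markers of other cells were measured too. The 7 genes past the expression filter of a list of 13 genes of acinar cells, the enzyme-making cells of the pancreas, had mean log2 intensities from 6.51 to 7.32 across the mice. A sorted population of mixed leukocytes is a bulk sample, in which fewer cells of a type and less RNA per cell cannot be told apart.

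Each ribosome joins a large subunit, which forms the peptide bonds, to a small subunit, which reads the messenger RNA. Ribosomal protein messages are among the most plentiful in most cells, and leukocytes raise ribosome production when they are activated to divide. Most of these messages begin with a C followed by a run of pyrimidines, the 5′ terminal oligopyrimidine motif or TOP motif, through which mTOR signalling adjusts their translation, largely without a change in their level. Paralogues of several ribosomal proteins are known for expression in testis, muscle or stressed cells.

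The 10 members below carry the TOP motif at a start site of the RefSeq table of GRCm38.p6, except Rpl7l1, Rpl39l and Rps27l. Those are paralogues picked without a match, which most core members in that table lack too. Each line shows 15 bases before the start site and 15 bases from it on, 5′ to 3′ on the gene's strand, with the motif in capitals. Rps6, the target of the S6 kinases, lies at chr4:86857353-86857382 on the minus strand.
Rps6: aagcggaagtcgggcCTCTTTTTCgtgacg
Rps10: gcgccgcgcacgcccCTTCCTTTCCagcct
Rps15a: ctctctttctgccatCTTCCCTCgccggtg
Rps18: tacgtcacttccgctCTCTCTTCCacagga
Rpl28: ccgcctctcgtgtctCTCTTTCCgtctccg
Rpl38: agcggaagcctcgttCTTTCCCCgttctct
Rplp2: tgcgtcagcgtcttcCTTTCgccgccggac
Rpl7l1: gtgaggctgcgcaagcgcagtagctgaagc
Rpl39l: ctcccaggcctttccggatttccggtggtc
Rps27l: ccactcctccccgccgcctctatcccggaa

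The other windows lie at chr17:27635230-27635259 (Rps10, minus strand), chr7:118116133-118116162 (Rps15a, minus), chr17:33955651-33955680 (Rps18, minus), chr7:4792950-4792979 (Rpl28, plus), chr11:114668565-114668594 (Rpl38, plus), chr7:141447636-141447665 (Rplp2, plus), chr17:46782642-46782671 (Rpl7l1, minus), chr16:10170213-10170242 (Rpl39l, plus) and chr9:66946071-66946100 (Rps27l, plus). Of the 63 members, 51 had a promoter in the table. A C exactly at the annotated start site with at least 4 pyrimidines after it was found in 10 of these 51, or 19.6%, against 3.01% of the 27025 genes of the table. The 10 were Rpl14, Rpl28, Rpl32l, Rpl38, Rplp2, Rps10, Rps15a, Rps18, Rps21 and Rps6. They were 9 of 43 genes that encode a subunit protein (20.9%) and 1 of 8 paralogues and like-named genes (12.5%), Rpl32l. An annotated start site a few bases away from the true one hides the motif, so the absence of a match says only that these letters are not at this position. Over the 300 bases from 250 before the start site to 50 after it, on either strand, CCGGAA, a core of sites for ETS factors, was found in 51.0% of the members and in 16.7% of all genes. CACGTG, the E-box bound by Myc, was found in 9.80% of the members and 8.09% of all genes, and TATAAA in 11.8% and 15.7%. No overlap between these motifs was removed.

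Most ribosomal protein genes were strongly detected in every mouse. Of the 54 members that encode a subunit protein, called core members here, 52 had a mean log2 intensity of at least 6, the filter for testing, as did 6603 of all 19938 genes. A mean of at least 10 was reached by 34 members, and by 140 genes in all. The brightness of a probe set also depends on its probes, so no order between genes is drawn from these levels.

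The stalk of the large subunit, which recruits the elongation factors, is made of Rplp0, Rplp1 and Rplp2. The intensity of Rplp0 was 4202, 4503, 4473, 4202 and 4172 in mice 1 to 5. That of Rplp1 was 2611, 3123, 3380.5, 2811 and 3529. Rplp1 was lowest in mouse 1 and highest in mouse 5, whereas Rplp0 was lowest in mouse 5, and the span over the mice was 1.08-fold for Rplp0 and 1.35-fold for Rplp1. Rplp2 stayed under the filter, at 48.8, 52.5, 52.0, 50.8 and 55.2. Rpl34, the other core member under it, had 40.8, 47.4, 37.1, 37.3 and 40.8. Each of those 2 genes had 1 probe set of its own; Rpl34 also had 4 sets whose annotation lists further symbols, with mean intensities from 420.5 to 1258.

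Rpsa and Rps6 stand for the small subunit. Rpsa, which is also known as a laminin receptor, had intensities of 1315, 1495, 1715, 1421 and 1409, highest in mouse 3 and lowest in mouse 1. Its other sets differed: of all 5, 3 were highest in mouse 2 and 1 in mouse 3, and 4 were lowest in mouse 4. Rps6 had 3548, 3702, 3386, 3536 and 3536, with mouse 2 at the top and mouse 3 at the bottom of a 1.09-fold span. All 8 sets of Rps6 were highest in mouse 2, whereas 3 were lowest in mouse 3 and 5 in mouse 4. Fau, which encodes a ubiquitin-like protein fused to Rps30 and falls outside the naming rule, read the same 1020.4 in 4 mice and 971 in mouse 4.

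Of the 9 paralogues and like-named genes, 6 were under the filter and 3 past it. This is close to the share over all genes, of which 6603 of 19938 were past it. Rpl3l, known as a paralogue of Rpl3 in heart and skeletal muscle, had intensities of 15.2 in mice 1 to 4 and 14.4 in mouse 5. Rpl39l, a paralogue of Rpl39 known from testis, lay between 5.94 and 7.003. Rpl10l, a testis paralogue of Rpl10, had 17.7, 19.2, 29.2, 16.9 and 13.01. These 3 genes were below the array medians in every mouse, except Rpl10l in mouse 3. Rps4l lay between 41.2 and 44.1 and Rps23rg1 between 28.5 and 30.6. Rps27l, a paralogue of Rps27 known as a p53 target, had 29.5, 46.1, 38.9, 38.9 and 38.9, lowest in mouse 1 and highest in mouse 2.

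The 3 like-named genes past the filter were Rpl7l1, Rpl32l and Rps19bp1. Rpl7l1 had intensities of 241, 244, 213, 287 and 243, highest in mouse 4. That mouse was the highest for 1 of the 52 core members past the filter (Rpl8) and for 18.0% of all genes past it. Rpl32l had 157, 198, 201, 175 and 182. Rps19bp1, which encodes a protein that binds Rps19, read 86.3 in all 5 mice. Equal values on at least 3 arrays occurred in 7 of the 55 members past the filter. Such values were more frequent over all genes: leaving them out kept 48 of the 55 members and 4079 of the 6603 genes.

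**Figure D1:**
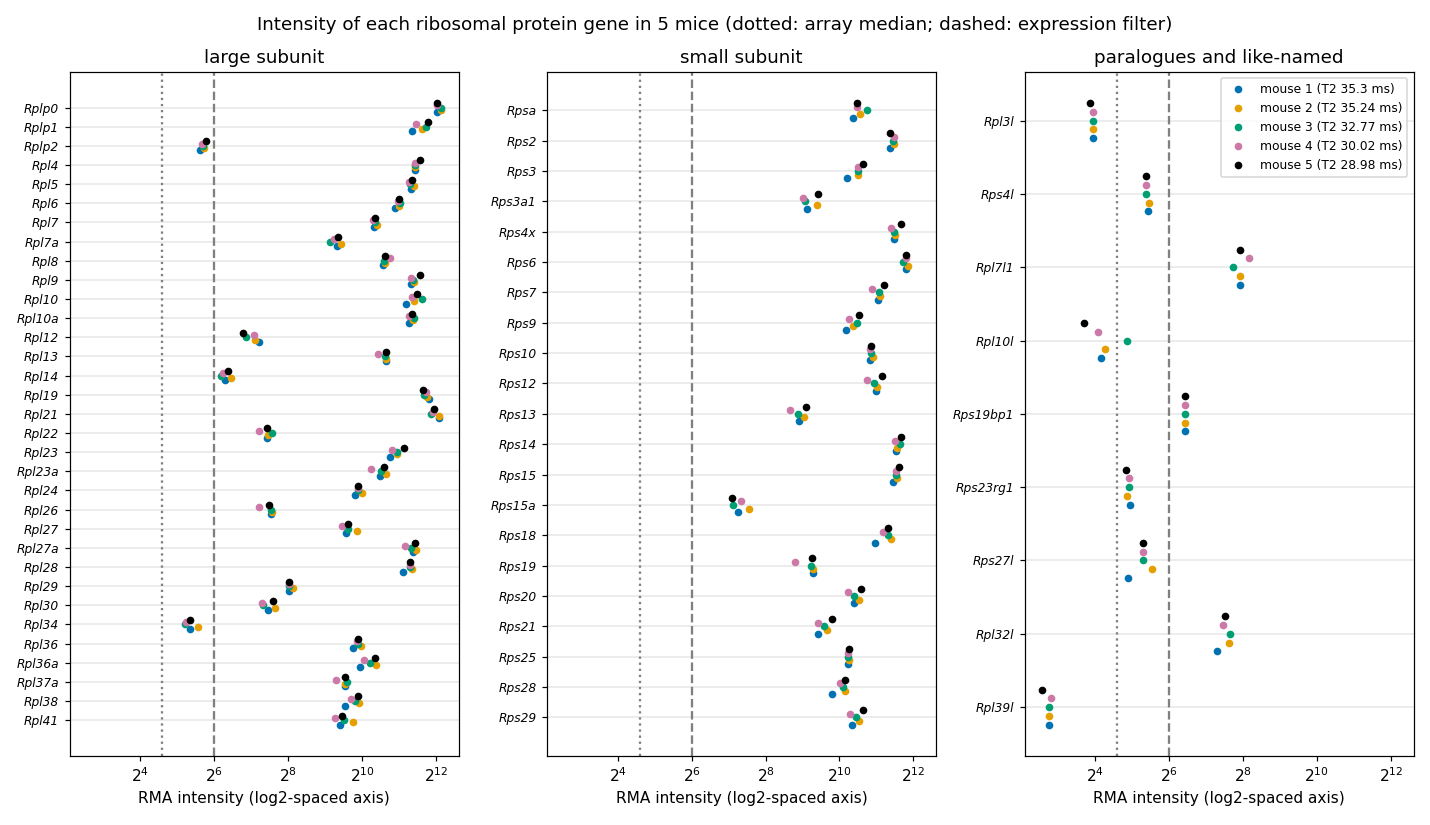
RMA intensity (log2-spaced axis) of the 63 ribosomal protein genes, 1 point for each of the 5 mice, with the array median (dotted) and the expression filter (dashed). Of the 54 core members 52 lie right of the filter, and 6 of the 9 paralogues and like-named genes lie left of it. Of all 19938 genes, 6603 passed the filter.

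The core members differed between mice by small amounts, and many of them in the same mice. The ratio of the highest to the lowest mouse ran from 1.02 (Rps25) to 1.41 (Rpl41), with a median of 1.25. Mouse 2 was the highest mouse for 23 of the 52 core members past the filter, where 12.3% of all genes past it were highest in that mouse. Mouse 5 was the highest for 17, against 34.3% of all genes. Mouse 4 was the lowest for 22 core members, against 8.53% of all genes, and mouse 1 for 20, against 15.9%. No core member was lowest in mouse 2, where 23.6% of all genes had their lowest value. These shares describe the arrays, with no test, since each mouse is 1 sample.

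Other scalings gave like counts for mouse 2 and mouse 4. Mouse 2 was highest for 23 members after renewed quantile normalization or centring of the arrays (20.4% and 11.5% of all genes), and for 27 with the mean of all probe sets (12.4%). Mouse 4 was lowest for 20, 19 and 25 members in the same order, against 10.2%, 6.62% and 8.59% of all genes. Mouse 1 was lowest for 16, 24 and 18, against 15.1%, 20.8% and 15.8%. Renewed quantile normalization raised the core members lowest in mouse 5 from 5, against 9.75% of all genes, to 12, against 33.6%, and lowered those highest there from 17, against 34.3%, to 12, against 20.2%.

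The subunits differed in which mouse was highest. Of the 31 large-subunit genes, 17 were highest in mouse 2 and 4 in mouse 5. Of the 21 small-subunit genes, 6 were highest in mouse 2 and 13 in mouse 5. Of all genes, 12.3% were highest in mouse 2 and 34.3% in mouse 5. The counts rest on 1 set per gene. Rps28 and Rps15 count for mouse 5, yet 6 of 7 and 2 of 3 of their sets were highest in mouse 2. By contrast, all 14 sets of Rps12 were highest in mouse 5. The split by subunit was not counted under the other scalings. The difference between the subunits was not tested, because genes of 1 array are not independent. The mean log2 intensity of the 52 core members was 10.15, 10.29, 10.21, 10.12 and 10.27 in mice 1 to 5 (SD of the mice 0.0746). Mouse 2 and mouse 5 had the highest means, with T2 values near opposite ends of the range. Relative to each gene's own mean, the core members averaged 0.0822 log2 in mouse 2 and 0.0618 in mouse 5. Over all 6603 genes past the filter the averages were -0.0419 and 0.0659, so mouse 5 was raised about as much over all genes.

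Mice of nearly the same T2 did not have the same levels. Mouse 1 and mouse 2 differ by 0.06 ms, the core mean was 0.14 log2 higher in mouse 2, and 45 of the 52 core members were higher in mouse 2, where 31.6% of all genes were. Equal values in both mice of a pair count as not higher. The count was 43 after renewed quantile normalization and 49 after centring, which moved the share of all genes to 62.4% and 58.1%. Centring makes equal values higher in mouse 2, whose array median was 24.1 against 24.3 in mouse 1. Mouse 4 and mouse 5 differ by 1.04 ms, the core mean was 0.15 log2 higher in mouse 5, and 41 core members were higher in mouse 5, against 48.7% of all genes. That count was 34 after renewed quantile normalization and 36 after centring, with 37.6% and 40.9% of all genes. Both pairs were picked after the values were seen.

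**Figure D2:**
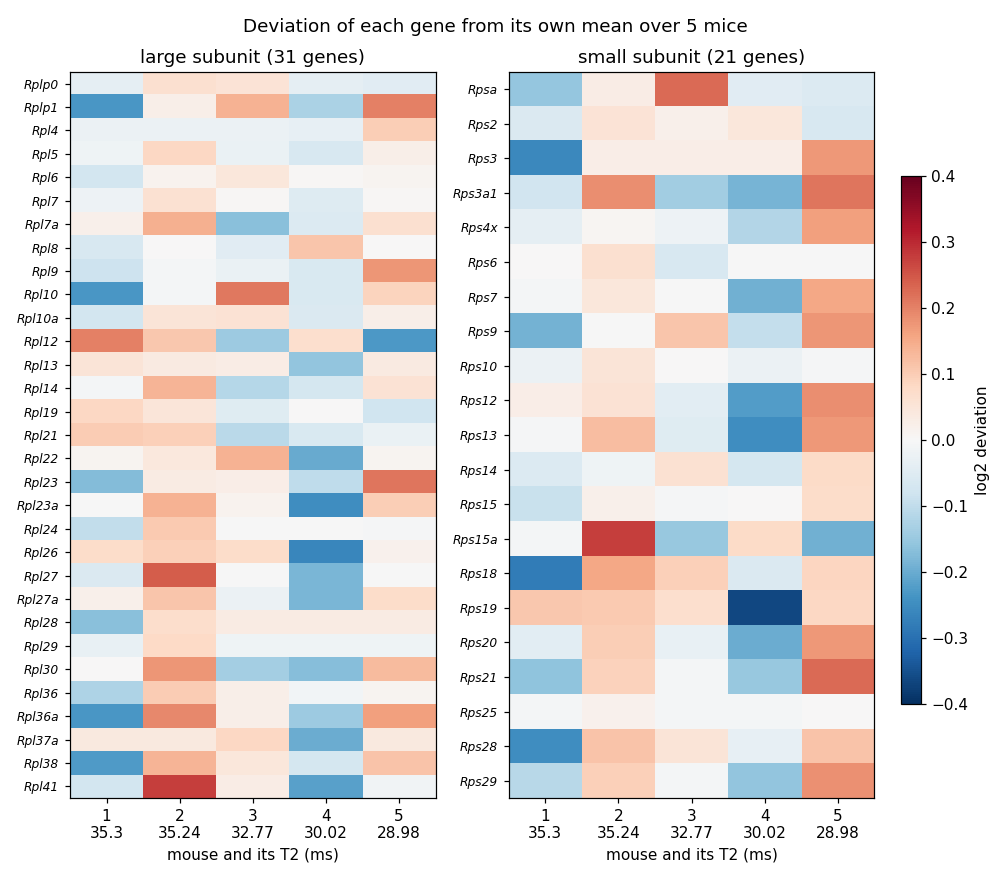
Deviation of log2 intensity from each gene's own mean over 5 mice, for the 31 large-subunit and 21 small-subunit genes past the filter. Columns are mice with their T2 in ms. Mouse 2 has 47 of the 52 genes above their mean and mouse 5 has 39, whereas mouse 1 has 13 and mouse 4 has 9. The counts over all 6603 genes past the filter were 3358, 2734, 2364, 3959 and 4532 for mice 1 to 5. Mouse 5 thus had the largest count over all genes.

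Of the 52 core members 51 had 1 mouse at each end, all but Rps25, whose lowest value was shared by 3 mice. The 2 most frequent combinations, with 9 genes each, had mouse 4 as the lowest. Combinations were not counted over all genes, so these counts do not show which are unusual. Taken singly, 8.53% of all genes were lowest in mouse 4 and 15.9% in mouse 1. In mouse 5 34.3% were highest, and in mouse 2 12.3%. With mouse 5 highest and mouse 4 lowest were Rpl4 and 8 small-subunit genes, Rps3a1, Rps4x, Rps7, Rps12, Rps13, Rps14, Rps20 and Rps29. Rps20 had intensities of 1332, 1467, 1345, 1194 and 1546 in mice 1 to 5. Rps13 had 480.4, 526, 466, 406 and 544, and Rps7, known to bind Mdm2, had 2128, 2207, 2138, 1872 and 2380.1. In these 3 genes mice 1 and 3 lay close together between the extremes, and mouse 2 lay above both.

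With mouse 2 highest and mouse 4 lowest were Rps10 and 8 large-subunit genes, Rpl5, Rpl7, Rpl23a, Rpl26, Rpl27, Rpl27a, Rpl30 and Rpl41. Rpl27 had intensities of 761, 938, 792, 697 and 792, a 1.34-fold span. Rpl5, which with Rpl11 restrains Mdm2 when ribosome assembly is disturbed, had 2546, 2728, 2530.3, 2461 and 2618, a 1.11-fold span. Rpl26, known to bind the p53 message, had 186, 189, 186, 148 and 179, with mouse 4 below the other 4. Mouse 5 highest and mouse 1 lowest was found for 8 genes, among them Rpl23, with 1714, 1979, 1968, 1803 and 2243, and Rps9, with 1150.4, 1310, 1416, 1227 and 1481. Mouse 2 highest and mouse 1 lowest was found for 7, among them Rpl36, with 862, 1008, 955, 931 and 945. Rpl22, whose loss is known to block development of alpha-beta T cells, had 172, 176, 188, 149 and 172, highest in mouse 3 and lowest in mouse 4.

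Other genes showed the same or another order. Rps18, at the head of the small subunit, had intensities of 1981, 2679, 2568, 2308 and 2554, so that mouse 1 stood below the other 4. Rps12 had 2038, 2081, 1944, 1713 and 2275, lowest in mouse 4. Rpl38, known for its part in translating Hox messages, had 748, 961, 903, 834 and 947. Rpl41, the shortest ribosomal protein, had 677, 863, 728, 613 and 705. Rpl10, which joins the large subunit late, departed from it: its values of 2312, 2703, 3149.7, 2607 and 2894 were highest in mouse 3.

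The separate probe sets of a gene often had the same highest or lowest mouse. All 14 sets of Rps12 were highest in mouse 5 and lowest in mouse 4. All 7 sets of Rps18 were highest in mouse 2 and lowest in mouse 1, and all 6 sets of Rpl10 were highest in mouse 3 and lowest in mouse 1. Of the 38 core members with several sets of their own, all sets of a gene were highest in the same mouse for 21 and lowest in the same mouse for 19. Such sets can hold probes for the same transcript or a close copy, so they are not independent. Of the 460 sets that name a member or core gene, 27 had the same 5 values as another such set. These include several sets of Rps12 and all 3 of Rpl41, whose agreement is thereby fixed. The same counts over all genes with several sets were not made. The 10 sets that list Rpl30 with further symbols had geometric means of 1844, 2380.2, 2204, 1945 and 2606, all highest in mouse 5 and lowest in mouse 1. The 1 set of Rpl30 alone read 176, 199, 160, 156 and 192, highest in mouse 2 and lowest in mouse 4.

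A further 16 core genes are listed only on 88 probe sets shared with other symbols, among them Rpl3, Rpl11 and Rps26. Their mean over the shared sets was highest in mouse 2 for 9 genes and in mouse 5 for 4, and lowest in mouse 4 for 8 and in mouse 1 for 6. In mouse 4 all 16 were below their own mean, as were 2475 of the 6603 genes past the filter. A pseudogene or copy on such a set cannot be told apart from the gene.

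**Figure D3:**
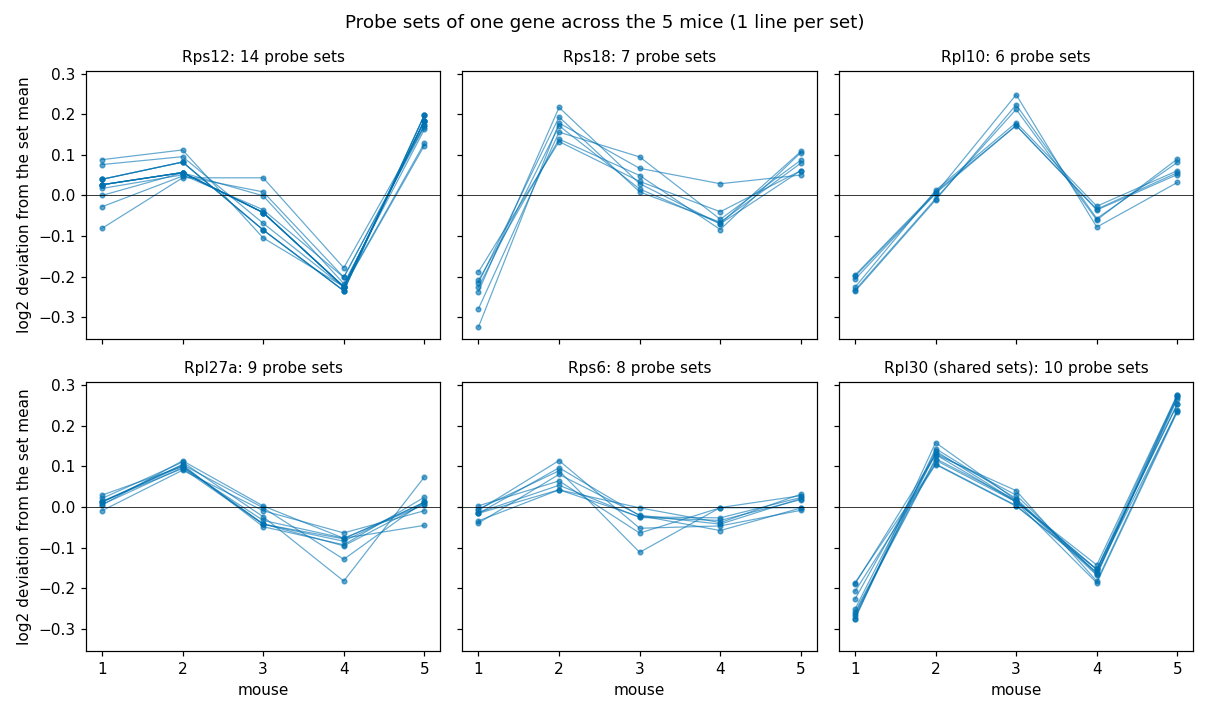
Deviation in log2 of each probe set from its own mean over the 5 mice, 1 line per set, for Rps12, Rps18, Rpl10, Rpl27a, Rps6 and the 10 shared sets of Rpl30. The 14 Rps12 sets, several of them with identical values, all end highest in mouse 5. The 7 Rps18 sets all peak in mouse 2 and the 6 Rpl10 sets all peak in mouse 3.

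Cell-type markers varied more than the ribosomal protein genes did. The median SD over the mice was 0.121 log2 for the 52 core members, 0.105 for all 6603 genes and 0.121 for the 106 other genes with a mean log2 of at least 10. It was 0.313 for the 14 T cell genes past the filter, 0.482 for 13 B cell genes, 0.469 for 11 macrophage genes and 0.771 for 7 neutrophil genes. The mean log2 intensity of the T cell list was 7.98, 8.76, 8.35, 8.39 and 8.19 in mice 1 to 5, so it shared its highest mouse (2) with the large subunit. The B cell list had 8.98, 8.09, 8.12, 8.67 and 8.68, with mouse 2 lowest. The neutrophil list ran from 6.72 in mouse 4 to 8.77 in mouse 3, the macrophage list from 8.18 in mouse 2 to 9.20 in mouse 5, and the acinar list from 6.51 in mouse 2 to 7.32 in mouse 1. The part of these cells in the ribosomal protein values was not tested.

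Among the members past the filter, Rps19, one of the proteins mutated in Diamond-Blackfan anaemia, had the largest SD. Its intensities were 620.1, 619, 602, 447 and 609.7, with mouse 4 below the other 4 (SD 0.204 log2). Rps15a, with 153, 187, 139, 163 and 135, had an SD of 0.188, and Rpl36a, with 990.5, 1330.1, 1183, 1053 and 1305, an SD of 0.187. Rps3a1 and Rpl12 followed with 0.187 and 0.181. Rps15a and Rps3a1 had 1 set each of their own, lowest in mouse 5 and in mouse 4. Both sets that list Rps15a with further symbols were lowest in mouse 4, and both such sets of Rps3a1 in mouse 1. The smallest spreads above 0 past the filter were those of Rps25 (0.0104), Rps10 (0.0313), Rpl7 (0.0417) and Rpl6 (0.0441). Rps25, used by some internal ribosome entry sites, read 1208 in 3 mice, 1228 in mouse 2 and 1215 in mouse 5. Its small spread belongs to this set: the geometric mean of its 6 sets spanned 1.09-fold, and 5 of the 6 were highest in mouse 2.

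No ribosomal protein gene had a T2 slope past the threshold. In limma's fit of log2 intensity on T2, 0 of 55 members had an adjusted p under 0.05 (0.0% of all genes tested), and the lowest adjusted p of a member was 0.828. At an unadjusted p under 0.05 there were 0 members, against 5.29% of all genes. The alternatives with all mice gave 0 to 2 members, and those without 1 mouse gave 1 to 5; the 5 came without mouse 5, where all genes gave 4.33%. Slopes were negative for 23 members, positive for 31 and 0 for Rps19bp1, whereas 67.9% of all genes had a negative slope and 28.9% a positive one. Renewed quantile normalization moved the negative share of all genes to 43.9% and left 21 negative members. The number of negative members was 11 with array weights, 12 without mouse 1, 39 without mouse 2 and 15 without mouse 5, where the shares of all genes were 66.5%, 69.2%, 65.5% and 51.4%. The mean slope of the 55 members was 0.0014 ± 0.0140 log2 per ms (SE, n = 5); it was -0.0095 without mouse 2, -0.0076 without mouse 4 and 0.0159 without mouse 5.

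The lowest p belonged to Rpl19, whose set of highest mean had intensities of 3570, 3486, 3260, 3373 and 3189. Mouse 4 was above mouse 3, and the other mice followed the order of T2. The slope was 0.0186 ± 0.0077 log2 per ms, which is 1.085-fold (95% interval 0.987 to 1.19) higher at the highest T2 than at the lowest (limma, adjusted p = 0.828). Of the 7 sets of Rpl19, 6 were highest in mouse 2 and 5 lowest in mouse 3, and the mean of all sets gave a slope of 0.0099. Rpl12 had the largest positive slope, 0.0431 ± 0.0231, from values of 148, 138, 116, 135 and 109 (limma, adjusted p = 0.828). Its 7 probe sets shared with Gm32899 were all highest in mouse 2 and lowest in mouse 4, whereas its own set and 1 set shared with Snora65 were highest in mouse 1 and lowest in mouse 5. With 1 mouse left out the slope of its own set lay between 0.0243 and 0.0630. Rpl21, Rpl26 and Rpl41 were next among the positive slopes by p, at 0.0222, 0.0319 and 0.0339. With 1 mouse left out the slope of Rpl21 lay between 0.0167 and 0.0339, that of Rpl26 between 0.0107 (without mouse 4) and 0.0615 (without mouse 5), and that of Rpl41 between 0.0079 (without mouse 2) and 0.0591 (without mouse 1). Rpl21 had intensities of 4323, 4306, 3737, 3868 and 3957, so that the mice of highest T2 were above the other 3, whose order ran against T2. This order belongs to the set of highest mean. Of the 9 sets of Rpl21 alone, 7 were highest in mouse 2 and 1 was lowest in mouse 3. Of the 32 sets shared with other symbols, 30 were highest in mouse 2.

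Rps3, which also has a role in DNA repair, had the most negative slope. Its intensities were 1186 in mouse 1, 1445 in mice 2 to 4 and 1598 in mouse 5. The slope was -0.0387 ± 0.0193 log2 per ms, which is 1.18-fold (95% interval 0.934 to 1.504) higher at the lowest T2 than at the highest (limma, adjusted p = 0.828). Rps15, Rpl9, Rpl4 and Rpl8 followed by p, with slopes of -0.0135, -0.0214, -0.0116 and -0.0138. Rps15 had intensities of 2778, 2998, 2947, 2958 and 3111, lowest in mouse 1 and highest in mouse 5. Rpl9 had 2548, 2688, 2653, 2586 and 3052, with mouse 5 above the other 4, and Rpl8 had 1518, 1588, 1537, 1714 and 1588, with mouse 4 highest. With 1 mouse left out the slope of Rps3 lay between -0.0580 (without mouse 2) and -0.0169 (without mouse 1), that of Rps15 between -0.0217 and -0.0058, and that of Rpl8 between -0.0248 and -0.0049. The slopes of Rpl4 and Rpl9 turned to 0.0022 and 0.0023 without mouse 5. Among the members under the filter, for which no p is given, the slopes ran from -0.0134 ± 0.0454 (Rps27l) to 0.0664 ± 0.0745 (Rpl10l).

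**Figure D4:**
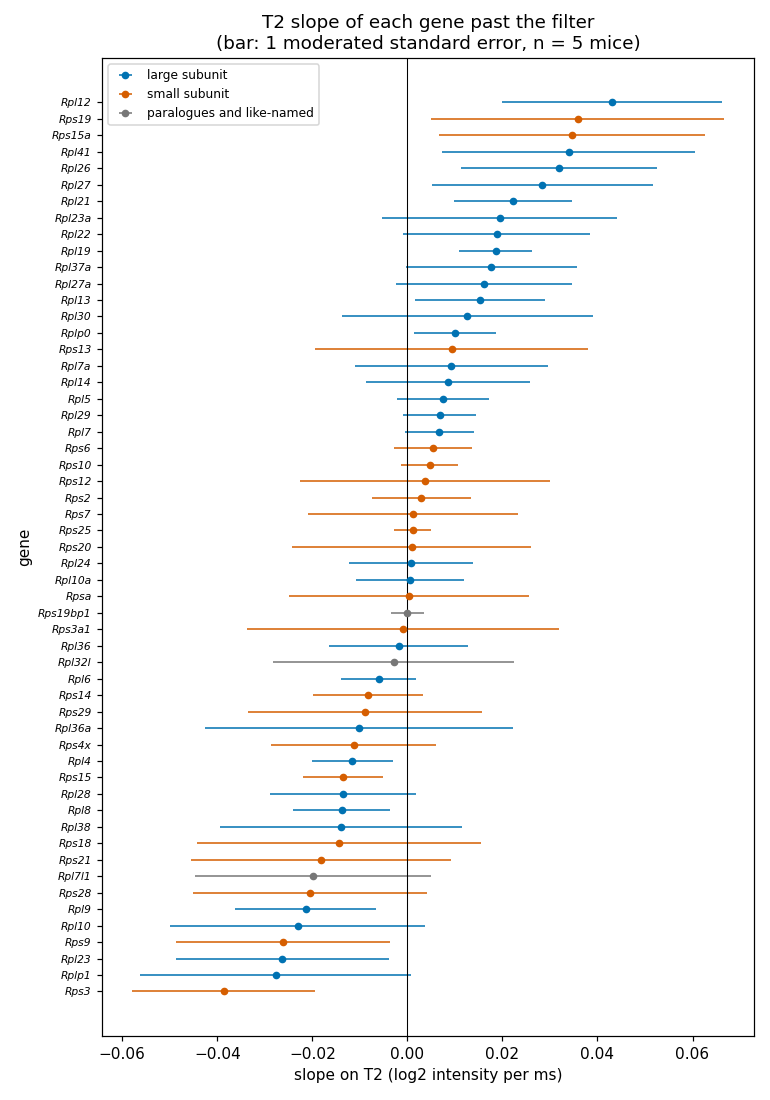
Slope of log2 intensity on T2 (log2 per ms) for the 55 members past the filter, ordered by slope, with 1 moderated standard error on each side (n = 5 mice). The slopes run from -0.0387 (Rps3) to 0.0431 (Rpl12), and none passed the adjusted threshold.

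Other genes of protein synthesis were counted in the same way, and none of them passed the adjusted threshold. Of 18 genes with TOP messages other than ribosomal proteins that passed the filter, 12 had negative slopes and 6 positive, and 2 had an unadjusted p under 0.05. The 12 are 66.7% of the list, beside 67.9% negative slopes over all genes, of which 5.29% had an unadjusted p under 0.05. The 2 were Eef2, the translocation factor of elongation, at -0.0198 ± 0.0049 log2 per ms (limma, adjusted p = 0.633), and Eif4b, an initiation factor, at -0.0355 ± 0.0097 (limma, adjusted p = 0.702). Of 27 ribosome biogenesis genes, 16 (59.3%) had negative and 11 positive slopes and none had an unadjusted p under 0.05. The list's largest moderated t values were those of Eif6, which keeps new large subunits from joining early, at 0.0190, and of Nop56, a snoRNP protein, at -0.0123. Of 13 genes that control TOP messages, 10 (76.9%) were negative and 2 positive, with Tsc2 at -0.0191 and Myc at -0.0144. Of 39 mitochondrial ribosomal protein genes, 13 (33.3%) were negative and 25 positive, and 1, Mrpl17 at -0.0215, had an unadjusted p under 0.05. By comparison, all 11 macrophage genes past the filter had negative slopes, 8 of them at an unadjusted p under 0.05, where 4.59% of all genes had such a p and a negative slope.

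Ribosomal protein genes are hosts of small nucleolar RNAs, which guide the modification of ribosomal RNA and are cut from introns. By RefSeq coordinates, 62 of them lie inside a ribosomal protein gene, and 22 had a probe set of their own, of which 14 passed the filter. Of these 14, 4 had positive slopes and 1 a negative slope at an unadjusted p under 0.05 (0.697% and 4.59% of all genes), and 0 passed the adjusted threshold. Snord33, inside Rpl13a, had intensities of 1498, 1277, 1011, 539.7 and 740.5, and a slope of 0.1861 ± 0.0429 log2 per ms (limma, adjusted p = 0.601). Snord15b, inside Rps3, had 3783, 3582, 3582, 2994 and 2281, a slope of 0.0919 against -0.0387 for its host. Snord16a, inside Rpl4, had 509, 581, 514, 416 and 296, a slope of 0.1168 against -0.0116 for its host. Snora70, inside Rpl10, had 79.3, 73.4, 79.3, 86.7 and 95.5, with a slope of -0.0459. Differences between a small nucleolar RNA and its host were not tested.

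**Figure D5:**
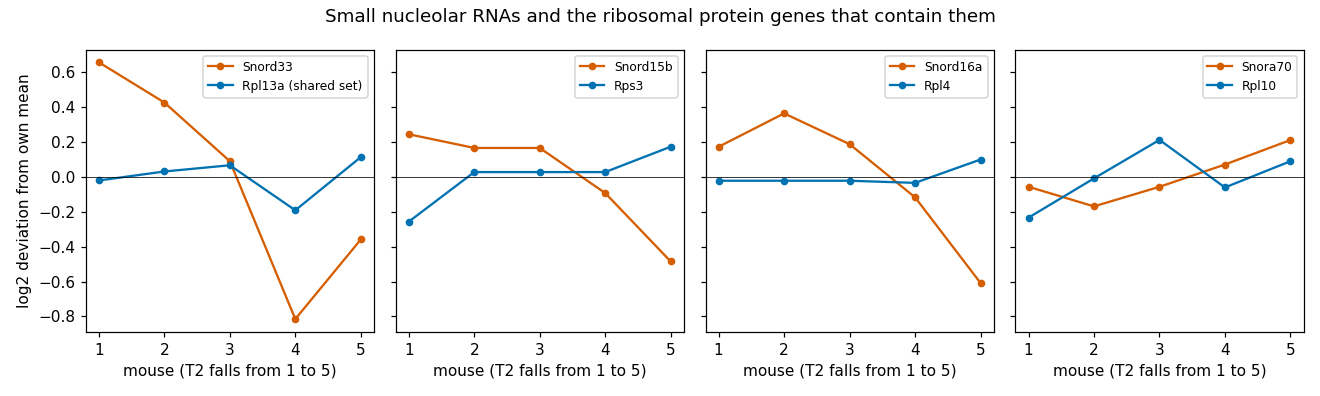
Deviation in log2 from the mean over the 5 mice for 4 small nucleolar RNAs and the ribosomal protein genes that contain them; T2 falls from mouse 1 to mouse 5. Snord33, Snord15b and Snord16a end below their means in mouse 5, where Rps3 and Rpl4 have their highest values.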

How the data were processed

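The authors deposited linear intensities per probe set. Per the submitters' processing notes these come from RMA and Affymetrix Power Tools, whose versions, like the genome build of the probe sets, are not stated in the sources at hand. Total RNA was extracted with TriZol and labelled with biotin, per the labels' protocols. Intensities were transformed to log2. Names came from the platform annotation; a gene is represented by the set of 1 symbol with the highest mean, and sets of several symbols stayed out of every test. The test covered genes whose log2 intensity averaged 6 or more. Log2 intensity was fitted on T2 with limma 3.58.1 in R 4.3.3 (lmFit and eBayes, 3 residual degrees of freedom, two-sided), and p-values were adjusted over 6603 genes by Benjamini and Hochberg with a threshold of 0.05; the script was tested on simulated data. The labels name separate mice but no batch, so none was tested. Precision is limited by having 5 arrays.

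The members and lists were chosen with earlier results of these data known. Named were the paralogues, members under the filter, the 5 members of lowest p in each direction, the 5 of largest and of smallest SD, a few fixed genes, 2 genes of each list by t, and small nucleolar RNAs inside the genes; other genes were named after their values were seen, namely the members given by their highest and lowest mouse and the genes on shared sets. Of the fixed genes, Rps27a and Rack1 were on no set of 1 symbol; some genes are not reported here. Small nucleolar RNAs were placed in host genes by coordinates without regard to strand. Alternatives were other filters, quantile normalization or centring of the arrays, the mean of all sets, log2 of intensity plus 16, T2 as a rank, array weights, another variance model, genes with equal values left out, and each mouse left out. Those of the counts by mouse were chosen after seeing the data.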

Additional observations from a re-analysis of the deposited data

Results flagged for a closer look

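In groups of 5 values, 1 mouse stood apart when its gap to the nearest mouse, divided by the whole range on the log2 scale, was above the 95% critical value of Dixon's test. Of 118 items examined (genes, small nucleolar RNAs and list means) 11 met this. The nominal rate of about 1 in 20 is for values without ties, and the items share the same 5 arrays. Of the 11, 9 were ribosomal protein genes, out of 63 examined. The rule was not applied to all genes, so these counts do not show an excess. Of these 9, 6 had equal values on 3 or more arrays, which narrows the rest of the range.

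Mouse 4 was low for Rps19, with a gap of 0.911 of the range, for Rpl13 (0.885), Rpl37a (0.847) and Rpl26 (0.779). Mouse 1 was low for Rpl28 (0.841). Mouse 2 was high for Rpl29 (0.887) and mouse 5 for Rpl4 (0.908). Among the dim paralogues mouse 5 was low for Rpl3l, whose other 4 values were equal (1.0), and for Rpl39l (0.742).

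The 3 sets that list Rps19 with further symbols read 412, 444, 405 and 395 in mice 1 to 4 by geometric mean, so mouse 4 was lowest there too, by less. All 9 sets of Rpl13 with its symbol alone were lowest in mouse 4. Of the small nucleolar RNAs, Snora33 was low in mouse 3 (0.769) and Snord96a, otherwise equal on 4 arrays, was high in mouse 5 (1.0). The causes were not tested.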

How the results depend on the processing

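No paired analysis was possible because the 5 mice form 1 group. Under every alternative 0 members passed the adjusted threshold, with 0 to 5 at an unadjusted p under 0.05. Their mean slope lay between -0.0095 (without mouse 2) and 0.0159 (without mouse 5) when 1 mouse was left out. The median SD of the members was 0.111 to 0.142 under the alternatives that kept all mice, and 0.0938 to 0.122 with 1 mouse left out. Of the slopes of the 55 members, 4 turned sign after renewed quantile normalization, 4 with the mean of all sets, 6 with the rank of T2 and 14 with array weights; with 1 mouse left out 3 to 16 turned. Among the named genes, those that turned after quantile normalization were Rpl32l (0.0095), Rps3a1 (0.0101), Rps10 (-0.0022), Nop56 (2.756e-04), Snora3 (0.0074) and Snora33 (0.0060). With the mean of all sets the named gene Rps15 turned to 0.0022, and with the rank of T2 the named gene Rpsa turned to -0.0126 per rank. Of the named genes, those that turned with array weights were Rpl32l (0.0144), Rpl36a (0.0284), Rps3a1 (0.0380), Rplp1 (0.0043), Mki67 (-0.0033), Mcm5 (-0.0222), Snora7a (0.0064) and Snora33 (6.607e-04). The causes were not tested.

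With 1 mouse left out, the slopes of 22 named genes turned sign under at least 1 of the 5 omissions. The lowest and highest slopes were -0.0213 and 0.0275 for Rpl32l, -0.0415 and 0.0204 for Rpl36a, -0.0281 and 0.0476 for Rps3a1, -0.0104 and 0.0024 for Rpl6, -9.452e-04 and 0.0025 for Rps25, -0.0010 and 0.0101 for Rps10, -0.0123 and 0.0237 for Rpsa, -0.0019 and 0.0091 for Rps6, -0.0375 and 0.0012 for Rpl7l1, -0.0346 and 0.0023 for Rpl9, and -0.0188 and 0.0022 for Rpl4. Among other genes they were -0.0029 and 0.1177 for Cd3e, -0.0871 and 0.0122 for Mzb1, -0.0401 and 0.0205 for Xbp1, -0.1087 and 0.0166 for Mmp9, -0.0927 and 0.0126 for Csf3r, -0.1309 and 0.0367 for Ctrb1, -0.0055 and 0.0511 for Mki67, -0.0350 and 0.0302 for Mcm5, -0.0476 and 0.0268 for Snora7a, -0.0110 and 0.0495 for Snora52, and -0.0061 and 0.0055 for Snora33.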
